A study of Mus musculus with 4 samples.

Results

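The 8 genes described here are the SoxC factors *Sox4*, *Sox11* and *Sox12*, the SoxD factors *Sox5*, *Sox6* and *Sox13* and the SoxE factors *Sox8* and *Sox9*. They were taken by symbol from the 52636 genes counted, and all 8 passed the filter on low counts. RNA-seq had been carried out on mouse kidney cells of the *Eya1* lineage, obtained by FACS of tdTomato+ cells at E12.5–E12.75, 48 h after the first tamoxifen. Control cells carried *Eya1*CreER and the tdTomato reporter, and *Eya1*cKO cells carried *Eya1* fl/fl as well, on a mixed C57BL/6J and 129/Sv background. CreER sits at the *Eya1* locus in both genotypes, so that the controls are not wild type there, and the gate holds cells in which CreER had recombined the reporter, and their descendants. Each genotype has 2 libraries of 5000 cells. Suspensions from different embryos had been combined and the portions sorted at the same time, so *P* values measure the spread between such portions.

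Sox proteins are transcription factors that bend DNA through an HMG box, and are sorted into lettered groups by the likeness of that box. SoxC proteins activate progenitor and neuronal programmes, and loss of *Sox4* or *Sox11* is known to disturb kidney development. SoxD proteins lack an activation domain, bind DNA as dimers and cooperate with SoxE proteins in cartilage. In the embryonic kidney *Sox8* and *Sox9* are best known from the ureteric tip, where they act downstream of GDNF-RET signalling.

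The groups can be read from the coding sequence near the start of the HMG box. Each line gives 60 bases, 5′ to 3′ on the coding strand, from the longest protein-coding transcript in GENCODE M21, and capitals mark positions that differ within the group.
Sox4: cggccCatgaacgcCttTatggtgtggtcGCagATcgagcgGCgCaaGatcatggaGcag
Sox11: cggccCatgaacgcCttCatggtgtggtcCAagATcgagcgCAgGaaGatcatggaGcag
Sox12: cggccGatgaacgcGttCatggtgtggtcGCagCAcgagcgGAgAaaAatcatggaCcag
Sox5: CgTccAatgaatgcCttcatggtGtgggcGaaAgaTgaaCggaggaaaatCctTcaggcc
Sox6: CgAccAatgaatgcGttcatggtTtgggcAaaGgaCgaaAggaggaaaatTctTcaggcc
Sox13: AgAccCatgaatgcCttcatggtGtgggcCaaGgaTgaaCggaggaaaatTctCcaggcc
Sox8: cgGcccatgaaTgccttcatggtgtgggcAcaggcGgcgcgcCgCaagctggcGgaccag
Sox9: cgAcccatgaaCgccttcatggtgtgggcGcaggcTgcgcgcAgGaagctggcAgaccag
On GRCm38 these coding exon stretches lie at chr13:28952782-28952841 (*Sox4*), chr12:27342199-27342258 (*Sox11*), chr2:152397516-152397575 (*Sox12*), chr6:143841214-143841273 (*Sox5*), chr7:115489703-115489762 (*Sox6*), chr1:133385506-133385565 (*Sox13*), chr17:25570163-25570222 (*Sox8*) and chr11:112782903-112782962 (*Sox9*), with *Sox9* on the plus and the others on the minus strand. Within them 12 positions vary among the SoxC genes, 11 among the SoxD genes and 7 between *Sox8* and *Sox9*. Over 210 bases from the same start, the 7 pairs inside a group were 81.9% to 91% identical and the 21 pairs across groups 52.9% to 75.2%. The closest pair was *Sox4* and *Sox11*, at 91%. No pair of members shares an identical run as long as the 75-base reads.

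The SoxC genes have a single exon, of 4795 bases in *Sox4*, 8311 in *Sox11* and 4453 in *Sox12*. *Sox8* and *Sox9* have 3 exon blocks each, and *Sox5*, *Sox6* and *Sox13* spread theirs over 953.6, 567.9 and 42.08 kb. Antisense genes overlap the exons of 3 members. *Gm26735* covers 54.6% of *Sox4* and had at most 3 reads per library, *Sox5os1* covers 9.25% of *Sox5* and had 0, and *2810468N07Rik* covers 10.6% of *Sox8* and had 28 to 83. Whether the counting used strand is not stated in the sources used here. Without strand, reads on the shared stretches cannot be assigned to either gene and may be missing from the counts. Levels per kb, shares and ratios below use the full exon length. How far they, and the place of *Sox4* in the order, depend on this was not tested.

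The libraries held 17457452 to 37999342 reads on genes, fewer in *Eya1*cKO than in control. Reads on no gene and unaligned reads took a larger share in *Eya1*cKO, and their part in the Sox values was not tested. *Eya1* itself had 6612 and 6420 reads in the control libraries and 377 and 219 in the *Eya1*cKO libraries, which left 8.08% of the control level. Levels are given as CPM, counts scaled to library size with edgeR's TMM factors, ± SD over n = 2 libraries, and values of a genotype are listed with replicate 1 first. Fold changes are log2 values of *Eya1*cKO over control with their SE, tested with edgeR's quasi-likelihood method.

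*Sox11*, *Sox9*, *Sox13* and *Sox4* were lower in *Eya1*cKO, at 41.5%, 45.9%, 69.3% and 75.7% of their control levels. These 4 of the 8 genes had an adjusted *P* under 0.05 in edgeR and no member was called higher. Of all 19041 genes tested, 9.56% were called, 4.41% as lower and 5.15% as higher. The libraries of the genotypes did not overlap for 6 members, 5 lower and 1 higher, against 55.3% of all genes, 30% lower and 25.3% higher, so that this separation alone is common here. The median log2 fold change of the 8 members was -0.36, and that of all genes 0.02. In sorted cells, fewer cells expressing a gene and less RNA per cell cannot be told apart. The calls rested on both controls: none of the 8 was called without control 1 or without control 2, when 23 genes passed in each case, although 5 and 3 members had an unadjusted *P* under 0.05, as did 8.5% and 8.08% of all genes in these fits. Without *Eya1*cKO 1 or *Eya1*cKO 2 the fit takes its spread from the controls alone, and calls made there are not read as results on the members. With a replicate block over all 4 libraries only *Sox11* stayed called. The edgeR adjusted *P* was then 0.081 for *Sox4*, 0.063 for *Sox9* and 0.11 for *Sox13*.

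**Figure D1:**
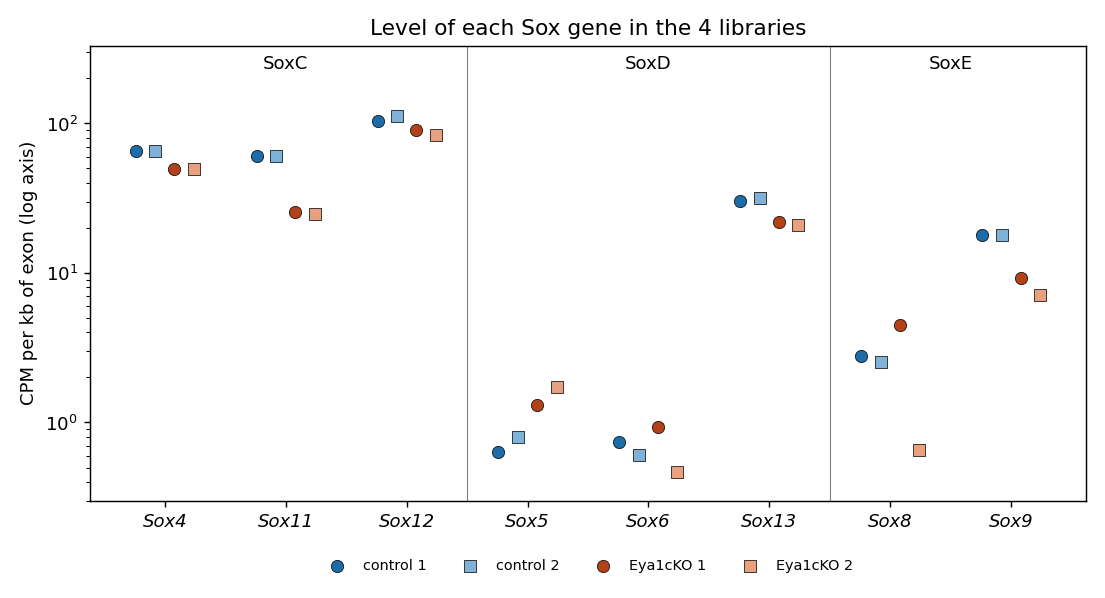
Level of each Sox gene in CPM per kb of exon (log axis), with 1 point per library. Both *Eya1*cKO points lie below both control points for *Sox4*, *Sox11*, *Sox12*, *Sox13* and *Sox9* and above them for *Sox5*, while those of *Sox6* and *Sox8* lie on either side of the controls.

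Per length of exon, *Sox12* was the most abundant member in control, at 108 ± 5.1 CPM per kb, followed by *Sox4* at 65.6 ± 0.15 and *Sox11* at 60.7 ± 0.18. *Sox13* had 31.0 ± 1.03 CPM per kb and *Sox9* 17.9 ± 0.04. *Sox8* followed at 2.66 ± 0.18 CPM per kb, and *Sox5* at 0.72 ± 0.11 overlapped *Sox6* at 0.67 ± 0.10. All other neighbours in this order were apart in both libraries. The order of the means was the same in *Eya1*cKO, with other distances. There *Sox11*, at 25.2 ± 0.74 CPM per kb, stood next to *Sox13* at 21.5 ± 0.77, and *Sox8* at 2.59 ± 2.73 overlapped *Sox5* at 1.52 ± 0.31. In CPM, the control level of *Sox11* exceeded that of 98.8% of the genes tested and the level of *Sox8* that of 44.6%.

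*Sox11* had the lowest fold change with all 4 libraries, but not without *Eya1*cKO 1, when *Sox8* was at -2.02, *Sox9* at -1.33 and *Sox11* at -1.31, and the differences between these genes were not tested. *Sox11* had 17588 and 18937 reads in the controls, or 504 and 506 CPM, but 4830 and 3598 reads, or 214 and 205 CPM, in *Eya1*cKO. Replicates lay close together and the genotypes far apart, with a log2 fold change of -1.27 (SE 0.07, edgeR adjusted *P* = 3.7e-04). With any library left out it stayed from -1.31 to -1.26, but the edgeR adjusted *P* was 0.055 without control 1 and 0.061 without control 2.

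*Sox4* had control values of 315 and 314 CPM and *Eya1*cKO values of 237 and 239 CPM. The fall was modest, -0.40 on the log2 scale (SE 0.08, edgeR adjusted *P* = 0.023), but larger than the spread within either genotype. Its size stayed from -0.43 to -0.41 with any library left out, and the edgeR adjusted *P* rose to 0.51 without control 1 and 0.53 without control 2.

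*Sox12*, which is broadly expressed in embryonic tissues, had 465 and 497 CPM in the controls against 402 and 370 CPM in *Eya1*cKO. The genotypes did not overlap, yet the log2 fold change of -0.31 (SE 0.08) just missed the threshold, at an edgeR adjusted *P* of 0.05004. It passed with DESeq2's Wald test (adjusted *P* = 0.0082) and when every library needed 10 counts or more (0.028, edgeR). It was not called without the low-count filter (edgeR adjusted *P* = 0.079) or with edgeR's legacy method (0.078). Nor was it called with a replicate block (edgeR adjusted *P* = 0.12). With a library left out the value ran from -0.39 to -0.27.

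**Figure D2:**
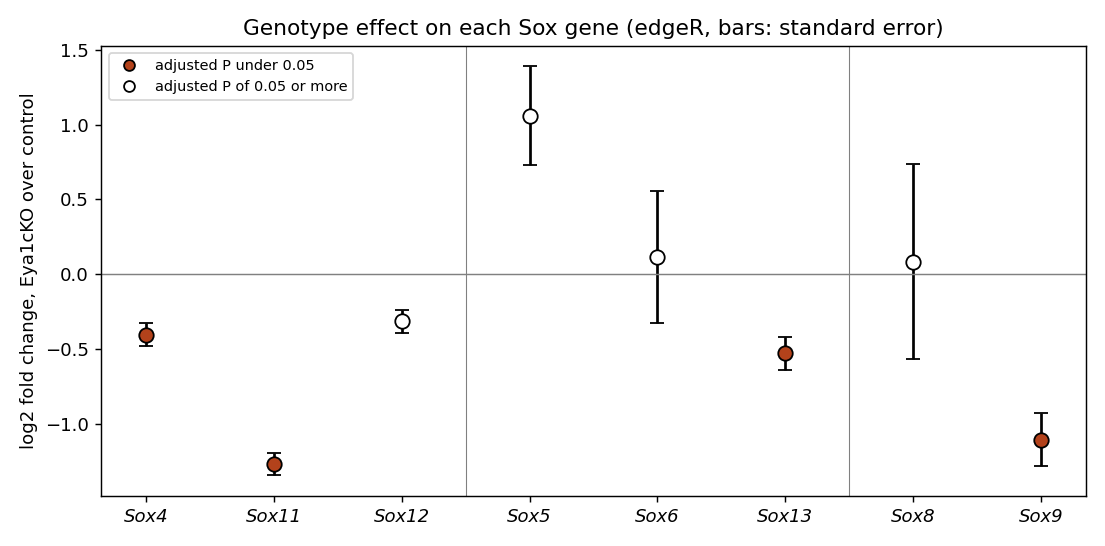
Log2 fold change of each Sox gene, *Eya1*cKO over control, with bars for the SE from edgeR and filled points for an adjusted *P* under 0.05. *Sox11* at -1.27 and *Sox9* at -1.10 lie lowest, and the bars of *Sox6* and *Sox8* cross 0.

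Summed per kb, the SoxC genes went from 234 ± 5.13 to 162 ± 5.41 CPM per kb, or 69.0% of control, and their proportions shifted. *Sox11* made up 26.3% and 25.6% of SoxC in the controls and 15.6% in each *Eya1*cKO library. *Sox12* made up 45.2% and 46.9% in control 1 and 2, then 54.6% and 52.7% in *Eya1*cKO 1 and 2. *Sox4* changed less, from 28.5% and 27.5% to 29.8% and 31.6%. The ratio of *Sox11* to *Sox4* per kb was 0.922 and 0.929 in control but 0.521 and 0.494 in *Eya1*cKO, so the pair with the most similar boxes changed unequally. Ratios and shares are given as descriptions and were not tested.

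**Figure D3:**
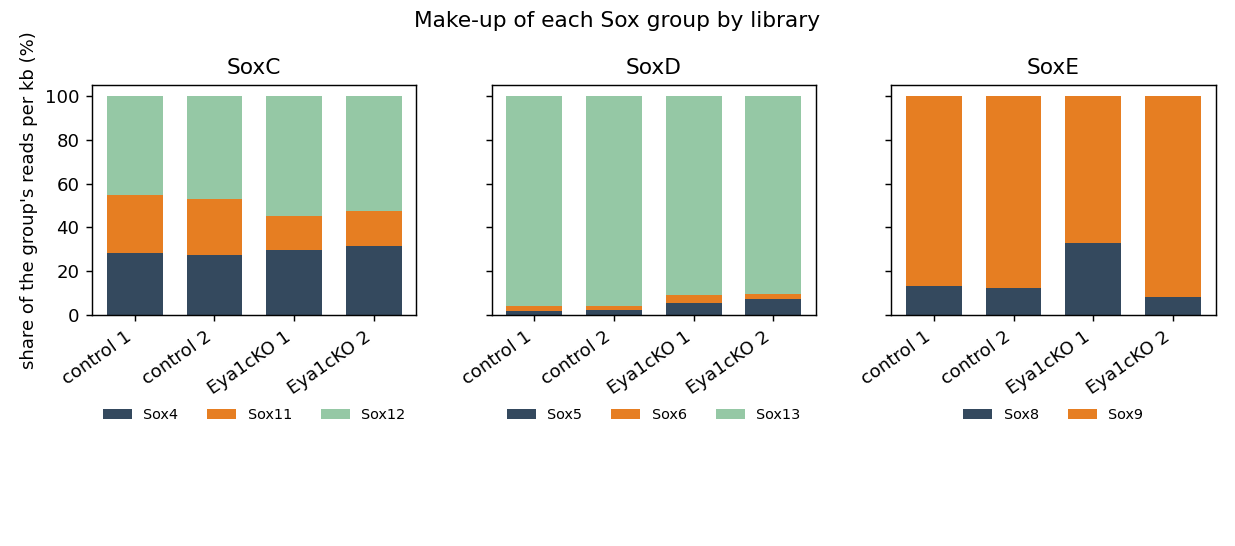
Share of each member in the reads per kb of exon of its Sox group, as stacked bars in percent for the 4 libraries. *Sox11* takes a smaller part of SoxC in both *Eya1*cKO libraries (15.6%), and *Sox8* takes 32.9% of SoxE in *Eya1*cKO 1 against 8.41% in *Eya1*cKO 2.

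Of the SoxD genes only *Sox13*, known as a partner of TCF factors, was abundant. It had control values of 131 and 137 CPM and *Eya1*cKO values of 95.1 and 90.4 CPM. The genotypes were apart, at -0.53 on the log2 scale (SE 0.11, edgeR adjusted *P* = 0.032). With a library left out the value ran from -0.58 to -0.51, and among the settings in which it was not called were those without control 1 (edgeR adjusted *P* = 0.54), without control 2 (0.63), without the low-count filter (0.061) and with edgeR's legacy method (0.051).

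*Sox5* pointed the other way. It had 9.19 and 11.4 CPM in the controls against 18.8 and 25.0 CPM in *Eya1*cKO, on 321 to 439 reads per library. The genotypes did not overlap, but the log2 fold change of 1.06 (SE 0.33) was not called, at an edgeR adjusted *P* of 0.094. It was called with DESeq2's Wald test (adjusted *P* = 0.037). It was not called without the low-count filter (edgeR adjusted *P* = 0.16), with edgeR's legacy method (0.12) or with a replicate block (0.15). With a library left out the value ran from 0.85 to 1.26.

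*Sox6*, the close relative of *Sox5* that acts with it in cartilage, had control values of 11 and 8.95 CPM and *Eya1*cKO values of 13.8 and 6.95 CPM. The *Eya1*cKO libraries enclosed the controls, and the log2 fold change of 0.11 (SE 0.44, edgeR adjusted *P* = 0.90) was smaller than its error. It turned to -0.05 without control 2 and to -0.53 without *Eya1*cKO 1, neither of them called.

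Summed per kb, the SoxD genes went from 32.4 ± 1.04 to 23.7 ± 0.79 CPM per kb, 73.2% of control. *Sox13* supplied 95.6% and 95.8% of this in the controls and 90.8% and 90.5% in *Eya1*cKO. *Sox5* supplied 2.02% and 2.40% in the controls and 5.39% and 7.51% in *Eya1*cKO. On the longest coding transcript instead of all exons, the mean share of *Sox5* went from 3.66% to 10.3%.

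*Sox9*, the SoxE gene that also specifies chondrocytes and Sertoli cells, had 2584 and 2761 reads in the controls, or 74.0 and 73.7 CPM. The *Eya1*cKO libraries had 862 and 520 reads, or 38.1 and 29.6 CPM. The controls were nearly equal and both *Eya1*cKO values far lower, with a log2 fold change of -1.10 (SE 0.18, edgeR adjusted *P* = 0.013). It ran from -1.33 to -0.97 with a library left out, and its edgeR adjusted *P* was 0.38 without control 1 and 0.41 without control 2.

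*Sox8* gave no common direction. The controls had 303 and 296 reads, or 8.68 and 7.91 CPM. The first *Eya1*cKO library had 318 reads, or 14.1 CPM, and the second only 36, or 2.05 CPM. One *Eya1*cKO library was above both controls and the other below them, and the log2 fold change was 0.09 (SE 0.65, edgeR adjusted *P* = 0.95). Without *Eya1*cKO 1 it was -2.02 (edgeR adjusted *P* = 0.0063) and without *Eya1*cKO 2 it was 0.75 (0.048). With 0.1 CPM added, the *Eya1*cKO libraries were 6.59-fold apart, while the 1954 genes with total reads within 1.5 times those of *Sox8* had a median of 1.71-fold and 4.04% of them were further apart. For *Sox9* this distance was 1.29-fold, near the median of 1.24-fold among its own like genes.

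Summed per kb, the SoxE pair went from 20.5 ± 0.22 to 10.8 ± 4.18 CPM per kb, 52.5% of control. The ratio of *Sox9* to *Sox8* per kb was 6.43 and 7.03 in the controls against 2.04 and 10.9 in *Eya1*cKO. The *Eya1*cKO libraries thus lay on both sides of the controls in the make-up of this group, while their *Sox9* levels were both low.

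**Figure D4:**
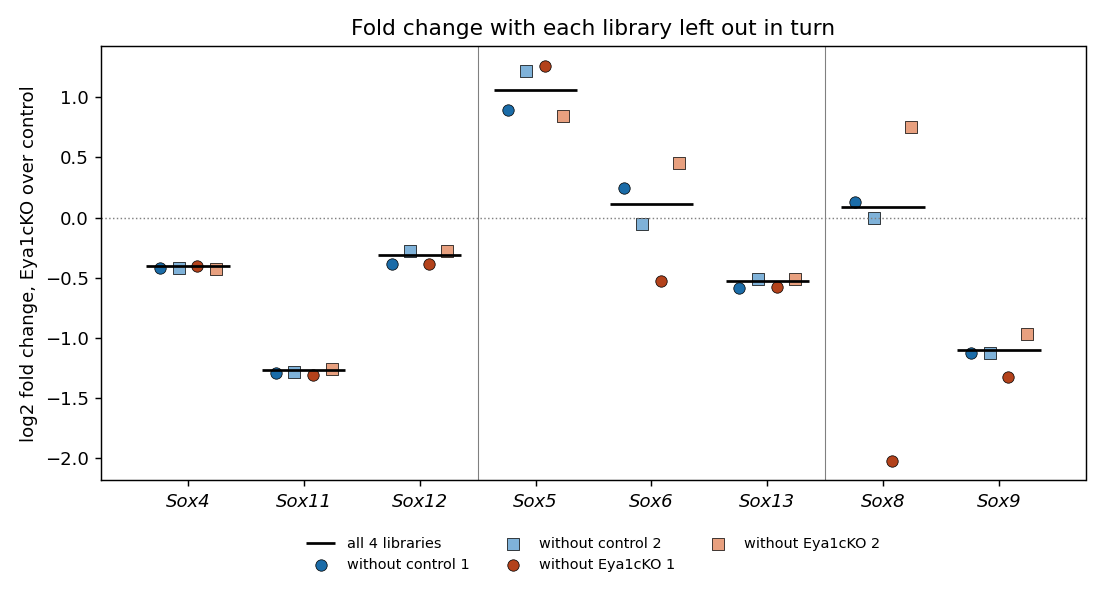
Log2 fold change of each Sox gene with all 4 libraries (lines) and with each library left out in turn (points). *Sox4*, *Sox11* and *Sox13* hardly move, *Sox9* runs from -1.33 to -0.97, and *Sox8* runs from -2.02 to 0.75.

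GDNF-RET branching genes, the pathway above the SoxE genes in the ureteric tip, were mostly lower. Of 9 genes, 7 were called lower and none higher, with a median log2 fold change of -1.72. They include the ligand gene *Gdnf* (-2.76, edgeR adjusted *P* = 0.0010) and the ETS factor gene *Etv4* (-3.21, adjusted *P* = 2.0e-04). The 8 ureteric bud markers, of which *Ret* and *Wnt11* are also in the branching list, summed to 224 to 226 CPM in control and 127 to 142 in *Eya1*cKO, with none at 0. *Calb1* (-2.19) and *Ret* (-1.89) were called lower, and *Emx2*, the other of the pair with the highest level, had -0.04 and was not called. The genotypes did not overlap for 6 of the 8, 5 lower and 1 higher, against 55.3% of all genes, 30% lower and 25.3% higher. The higher one was *Wnt7b*, with control values of 3.98 and 5.53 CPM against 10.6 and 6.10 CPM (0.85, edgeR adjusted *P* = 0.33, not called). The 8 nephron progenitor markers, the deleted gene *Eya1* among them, were all called lower. They summed to 1916 to 1926 CPM in control and 364 to 408 in *Eya1*cKO. The part of these lists in the lower *Sox9*, *Sox11*, *Sox13* and *Sox4* was not tested.

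Cartilage targets of *Sox9* and the SoxD proteins did not move together. Of 13 genes, 10 were tested, 2 called lower and 2 higher, with a median of -0.14. *Col2a1*, the collagen gene that *Sox9* activates in chondrocytes, had 166 and 176 CPM in the controls against 31.7 and 48.9 CPM in *Eya1*cKO (log2 fold change -2.12, SE 0.18, edgeR adjusted *P* = 0.0014). *Col9a1*, another cartilage collagen gene, fell by 2.08 on the log2 scale (edgeR adjusted *P* = 0.028). *Col9a2*, whose product joins that of *Col9a1* in collagen IX, was higher, with control values of 15.4 and 15.5 CPM against 47.2 and 61.6 CPM (1.79, edgeR adjusted *P* = 0.0065). *Acan*, the aggrecan gene, was higher too, with 9 and 20 reads in control and 100 and 142 in *Eya1*cKO (log2 fold change 3.90, edgeR adjusted *P* = 0.028). *Matn1* had 8 and 50 reads in the controls and 0 in *Eya1*cKO, at least 5.1-fold lower against a limit of 3 counts per library, or 1.5-fold from control 1 alone and 8.7-fold from control 2 alone. *Matn3* had 25 and 12 reads in the controls and 0 in *Eya1*cKO, at least 3.4-fold lower, or 2.1-fold from control 2 alone. *Cnmd* had 2 to 12 reads per library. These last 3 did not pass the low-count filter.

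Genes reported as SoxC targets in other tissues were also split. Of 6 genes, 3 were called lower and 1 higher, with a median of -0.35. *Dcx*, a microtubule-binding protein gene of migrating neurons, fell by 1.49 on the log2 scale (edgeR adjusted *P* = 0.035), and *Ezh2*, the Polycomb methyltransferase gene, fell by 0.62 (0.016). *Tubb3*, the neuronal tubulin gene, was higher, with 92 and 31 reads in control and 335 and 361 in *Eya1*cKO (log2 fold change 3.35, edgeR adjusted *P* = 0.016). Of 8 genes for partners and modifiers of Sox proteins, 7 were tested and only the corepressor gene *Ctbp2* was called, at -0.46 (edgeR adjusted *P* = 0.048), with a median of -0.09. *Pou3f2*, a neuronal POU factor gene, had at most 2 reads per library and was not tested.

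The other 12 Sox genes reached at most 29.8 CPM in any library. Of 8 tested, 3 were called higher and none lower. *Sox10*, the remaining SoxE gene and a regulator of neural crest and glia, had 0 and 5 reads in the controls against 83 and 75 in *Eya1*cKO (log2 fold change 5.74, SE 1.24, edgeR adjusted *P* = 0.035). *Sox2*, a factor of neural progenitors, had 0 and 12 reads in control and 93 in each *Eya1*cKO library (4.77, edgeR adjusted *P* = 0.032). At these control counts the fold depends on the prior count of the fit. The 8 neural crest and glial markers, *Sox10* among them, summed to 27.5 to 29.0 CPM in control and 31.7 to 40.7 in *Eya1*cKO, with *Sox10* the only one called of 6 tested and *Cdh19* at 0 in both controls. The 7 sympathoadrenal markers summed to 30.3 to 35.1 CPM in control and 193 to 198 in *Eya1*cKO, with 5 called higher, 1 lower and none at 0. Their part in the values of *Sox10*, *Sox2* and *Tubb3* was not tested.

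Among the SoxF genes of endothelium, *Sox18* had control values of 11.4 and 9.16 CPM and *Eya1*cKO values of 24.3 and 27.2 CPM (log2 fold change 1.32, SE 0.30, edgeR adjusted *P* = 0.038). *Sox17* had 6.13 and 6.76 CPM in control and 15.4 and 29.8 in *Eya1*cKO (1.76, edgeR adjusted *P* = 0.052). *Sox7* had 15.7 and 14.9 CPM in control and 14.3 and 9.18 in *Eya1*cKO (-0.34, edgeR adjusted *P* = 0.57). All 8 endothelial markers were called higher and summed to 603 to 619 CPM in control and 1080 to 1137 in *Eya1*cKO, and their part in *Sox18* was not tested. *Sox1*, with 16 and 26 reads in the controls and 0 in *Eya1*cKO, was at least 3.7-fold lower against the 3-count limit and was not called (edgeR adjusted *P* = 0.11). *Sox21*, with 61 and 25 reads in the controls and 0 in *Eya1*cKO, was at least 7.9-fold lower, or 4.3-fold from control 2 alone, and was not called (edgeR adjusted *P* = 0.14). *Sox30* had 35 and 48 reads in the controls but 2 and 211 in *Eya1*cKO, and was not called (edgeR adjusted *P* = 0.32). *Sry*, *Sox3*, *Sox14* and *Sox15* had at most 23 reads per library and were not tested.

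Markers of further cell types also differed. The 7 podocyte markers summed to 879 to 900 CPM in control and 2773 to 2829 in *Eya1*cKO, with 6 called higher. The 8 renal stroma markers summed to 2884 to 2896 CPM in control and 5811 to 6119 in *Eya1*cKO, with 5 called higher. Of the 7 adrenal cortex markers 6 were tested and all 6 called higher, with sums of 11.5 to 18.7 CPM in control and 653 to 677 in *Eya1*cKO. Of the 8 blood and immune markers 4 were tested, and none had an adjusted or unadjusted *P* under 0.05 in edgeR. Their sums were 82.5 to 86.9 CPM in control and 69.0 to 93.0 in *Eya1*cKO, with *Hbb-bs* and *Hba-a1* listed at 0 in all libraries. The part of these lists in the Sox values was not tested.

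The patterns most like the most abundant member of each group were ranked by the Euclidean distance between centred log2(CPM + 0.5) values over the 4 libraries, among 12038 genes with a mean of at least 5 CPM. Nearest to *Sox12* were *Rala*, *Rbm12* and *Btf3*, at 0.034 to 0.038, and 117 genes lay within 0.1. Nearest to *Sox13* were *Mier3*, *Tfdp1* and *Kpnb1*, at 0.014 to 0.028, with 91 genes within 0.1. Nearest to *Sox9* were *Ebag9*, *Cbx2* and *Rcor2*, at 0.042 to 0.056, and only 8 genes were within 0.1. Over 4 libraries in 2 genotypes, this measure mostly picks genes with a similar fold change.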

How the data were processed

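Libraries of control and *Eya1*cKO kidney cells, 2 each, were analysed. The authors mapped single-end reads to mm10 with HISAT2 and counted them on Ensembl genes with HTSeq. The deposited values are these raw read counts, and reads on no gene, ambiguous or unaligned were left out of library sizes.

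Counts were tested in R 4.3.3 using edgeR 4.0.16 with filterByExpr (minimum count 10), TMM, glmQLFit (legacy = FALSE) and two-sided glmQLFTest, with Benjamini-Hochberg adjustment over the 19041 genes tested. The SE is the size of the log2 fold change divided by the root of its F statistic. The procedure was tested on simulated data. Alternatives were DESeq2 1.42.0, other scalings and filters, thinned control counts, a replicate block and leaving out each library. Symbols were found for 52403 of 52636 identifiers. GENCODE M21, a later annotation than the one counted on, gave exon lengths, loci and sequences on GRCm38. A limit of 3 counts equals 0.0801 to 0.171 CPM, for counting error only. Replicates differed by more than counting noise, and more so in *Eya1*cKO. Chi-square per degree of freedom was 9.68 between the control libraries and 49.65 between the *Eya1*cKO libraries.

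The members and lists were chosen with earlier results of these data known. Genes named are the members, *Eya1*, other Sox genes, up to 3 called and all untested genes of each pathway list, up to 2 of each marker list and the 3 nearest patterns. Other names (*Ret*, *Wnt7b*, *Col9a2*, *Cdh19*, the globins, antisense genes) were added after their values were seen. One gene that the rule names is not reported here.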

Additional observations from a re-analysis of the deposited data

Results flagged for a closer look

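Reads outside the gene counts took a larger share in *Eya1*cKO than in control. As a share of all reads, those on no gene made up 22.7% and 20.9% in *Eya1*cKO 1 and 2 and 13.9% and 12.9% in control 1 and 2. Reads that did not align were 12.9% and 12.7% in *Eya1*cKO 1 and 2 and 6.32% and 6.69% in control 1 and 2. Both differences are larger than the spread between replicates, and they belong to no gene, so their part in any Sox value was not tested. With 2 libraries a genotype, no group was large enough for a test of outlying samples.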

How the results depend on the processing

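Of all genes, 1820 were called, 839 lower and 981 higher. The numbers were 1055 (507 and 548) without the low-count filter, 3054 (1277 and 1777) with DESeq2's Wald test and 1096 (515 and 581) with edgeR's legacy method, and 653 were higher with thinned control counts. With a library left out they ran from 23 to 7925, from 7 to 3482 lower and from 15 to 4443 higher, and from 0 to 7 of the Sox members were called; an arm of 1 library is then assumed to vary like the other. Log2 fold changes then ran from -0.43 to -0.41 for *Sox4*, from -1.31 to -1.26 for *Sox11*, from -0.39 to -0.27 for *Sox12*, from 0.85 to 1.26 for *Sox5*, from -0.53 to 0.45 for *Sox6* (-0.05 without control 2), from -0.58 to -0.51 for *Sox13*, from -2.02 to 0.75 for *Sox8* and from -1.33 to -0.97 for *Sox9*. *Sox12* was called at -0.33 with 10 counts in every library and at -0.30 with DESeq2, and *Sox5* at 1.10 with DESeq2. *Sox13* lost its call at -0.54 without the filter and at -0.53 with the legacy method. *Sox8* turned to -0.029 with DESeq2 and -0.036 with the legacy method. The causes were not tested. The scalings moved the median of all genes from 0.02 to at most 0.05 and changed no member's direction or call. Shares of raw counts kept the direction of every member's share but not its size. The difference in percentage points, *Eya1*cKO minus control, went from 4.24 to 10.9 for *Sox5*, from -5.08 to -12.6 for *Sox13*, from 2.74 to 4.37 for *Sox4*, from -10.3 to -13.7 for *Sox11* and from 7.58 to 9.33 for *Sox12*. On the longest coding transcript, an alternative chosen after seeing the data, it was 6.69 for *Sox5* and -7.76 for *Sox13*.

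Replicate numbers do not pair the samples (r = 0.0062 between the genotypes' differences, 19041 genes). With the replicate block, 621 genes were called (263 lower, 358 higher) and 1 member, *Sox11*, while *Sox4* (-0.40), *Sox13* (-0.53) and *Sox9* (-1.11) were not.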
